A study of Mus musculus with 6 samples.

Results

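The cytosolic ribosomal proteins were taken as the protein-coding mouse genes whose symbol is Rpl or Rps with a number and an optional a, l or x, or Rplp0, Rplp1, Rplp2 or Rpsa, without the Rps6k kinases, pseudogenes and Y-linked genes. The rule gave 80 of the 49315 genes in the files, 49 of the large subunit and 31 of the small subunit. A filter on low values, 10 or more counts and 2 or more CPM (reads of a gene relative to all reads counted) in 1 library, kept 77 of the 80 among 12838 genes in all. The 3 that did not pass were Rpl3l, Rpl10l and Rpl39l. By its symbols alone the rule leaves out 6 other proteins of the ribosome family, among them Rps3a1, Rpl22l1 and Rpl7l1.

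The 6 libraries, 1 per condition, held RNA of CD4 T cells of C57BL/6 strain that carry the CBir1 TCR transgene (Tg), a receptor that recognises a flagellin of gut bacteria. In 5 libraries, CD45.1 donor cells lacking CD44 had been given on day 0 to C57BL/6.CD45.2 hosts, which were immunised on days 1 and 7 with 50 ug CBir1 flagellin and 1 ug CT. The mice of 4 groups received 3 ug of the peptide MEP1 on days 28 and 35, followed for 5 days by the vehicle CMC (MEP1+CMC), by metformin in CMC (MEP1+Metformin), by rapamycin in CMC (MEP1+Rapamycin) or by both (MEP1+Metformin+Rapamycin, called the combination here). The No treatment mice received neither at that time. All recipients were then challenged with 3 ug MEP1 on day 56, per the protocol, and on day 63 the remaining donor cells were sorted from spleens. The last library was the naive CD4 control of the same transgene, from spleen, with no further treatment given in its label. The sources used here give neither inhibitor doses, age and sex of the mice nor the number of mice behind a library. The header of the counts for No treatment names those cells unchallenged, which goes against label and protocol. The label was used, and if the header is right, differences between No treatment and the MEP1 libraries also hold the day 56 challenge.

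Each ribosomal protein takes a fixed place in a ribosome, most of them as 1 copy, so a cell needs its ribosomal proteins in matching amounts. Their mRNAs are short and very abundant, and most begin with a C followed by a run of C and T, the 5' terminal oligopyrimidine (TOP) motif, through which mTORC1 sets how well they are translated. Rapamycin inhibits mTORC1, metformin inhibits mitochondrial complex I and activates AMPK, which in turn lowers mTORC1 activity, and lymphocytes raise ribosome production when they are activated. The libraries measured mRNA levels, not translation or ribosome number.

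The start of the mRNA was looked up because the TOP motif is the common mark of the family. RefSeq start windows (GRCm38.p6) were matched by symbol for 60 of the 80 genes. A C at the annotated start followed by at least 4 more C or T was present in 13 of the 60 (21.7%) and in 813 of 27025 genes of any kind (3.01%). The windows are shown for the 3 longest runs, for Rps6 and for the pair with the shortest, 15 bases before the start and 15 from the start on, with the run from the start in capitals. The positions, in the order shown, are chr14:18270972-18271001 (minus strand), chr2:39005117-39005146 (minus), chr17:27635230-27635259 (minus), chr4:86857353-86857382 (minus), chr7:141447636-141447665 (plus) and chr2:180257364-180257393 (plus).
Rpl15: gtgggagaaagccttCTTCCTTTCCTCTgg
Rpl35: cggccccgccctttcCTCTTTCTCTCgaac
Rps10: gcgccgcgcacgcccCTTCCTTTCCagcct
Rps6: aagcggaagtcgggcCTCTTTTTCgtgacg
Rplp2: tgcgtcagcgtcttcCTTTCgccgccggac
Rps21: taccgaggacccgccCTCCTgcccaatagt
The run was 13 bases in Rpl15, 11 in Rpl35, 10 in Rps10, 9 in Rps6 and 5 in Rplp2 and Rps21. Annotated starts can lie some bases from the start used in these cells, so a gene without a run at the annotated base may still have one. The 7 letters CCGGAAG, the core that ETS family factors bind, were searched on both strands of the 300 bases around the start. They were held by at least 1 window of 25 of the 60 genes (41.7%), against 9.93% of genes of any kind. Both are descriptions of the letters. The genes with and without the run had nearly the same median log2 ratio in each of the 7 comparisons below, for example 0.56 (n = 13) and 0.55 (n = 44) between MEP1+Rapamycin and MEP1+CMC, and -0.93 and -0.87 between No treatment and the naive control.

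Ribosomal protein mRNAs were highest in the naive control and lowest in MEP1+Metformin, with MEP1+Rapamycin next below the naive control. The 80 genes held 6.89% of all counts in the naive control (exact 95% binomial interval 6.88% to 6.90%), 4.90% in No treatment (4.90% to 4.91%), 3.95% in MEP1+CMC (3.94% to 3.96%), 3.69% in MEP1+Metformin (3.68% to 3.69%), 6.29% in MEP1+Rapamycin (6.28% to 6.30%) and 4.23% in the combination (4.22% to 4.23%). After scaling with trimmed means of M values (TMM, which assumes that most genes do not differ), their median level over the 77 genes was 9.79, 8.95, 8.53, 8.27, 9.06 and 8.50 TMM log2 CPM in the same order. The naive control was the highest library for 77 of the 77 genes. MEP1+Rapamycin came next for 64 of them and No treatment for the other 13, and MEP1+Metformin was the lowest for 75. MEP1+CMC and the combination exchanged ranks from gene to gene, with MEP1+CMC the fourth for 42 genes and the combination for 35. With 1 library per condition there is no replicate spread behind these orders, and intervals cover counting error only.

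**Figure D1:**
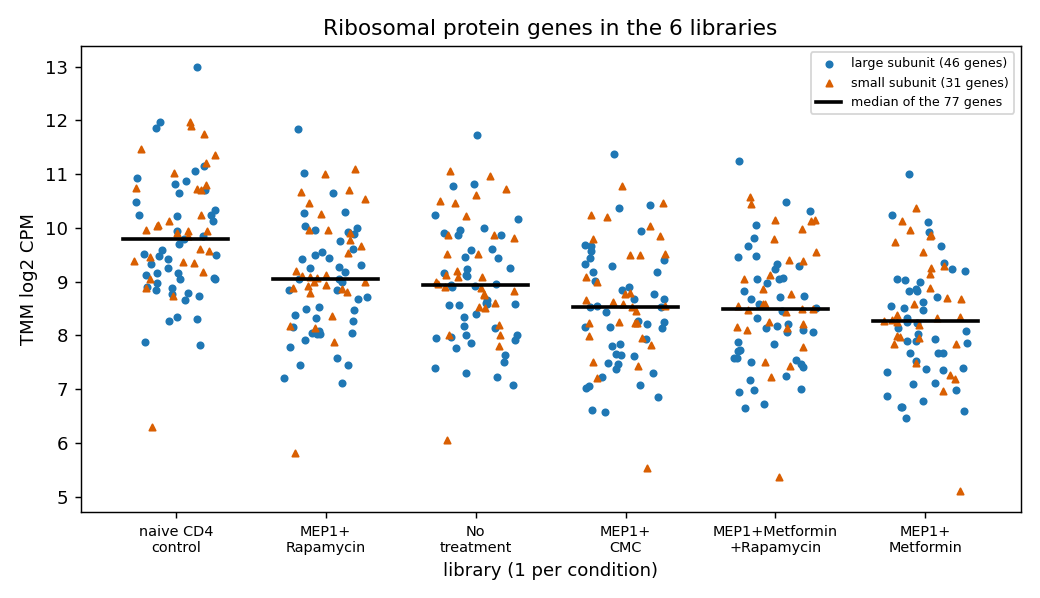
TMM log2 CPM of the 77 ribosomal protein genes (y axis) in each of the 6 libraries (x axis, 1 library per condition), as blue circles for the large and orange triangles for the small subunit, with the median as a black bar. The median falls from 9.79 in the naive control to 8.27 in MEP1+Metformin, and Rps27l is the lowest point in every library.

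The 2 subunits kept step. Counts of large subunit genes were 1.20 to 1.25 times those of small subunit genes in the 6 libraries. Per kilobase of exon, the mean level over the 6 libraries was 2016 TMM CPM for Rplp1, 1821 for Rps27 and 1603 for Rpl36, all among the most abundant members, and the lowest of the 77 was Rpl22 (44.9). Exon length here is the union of annotated exons, so a gene with a long rarely used exon is understated.

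Library facts touch these levels as follows. Total counts ran from 26139000 (naive control) to 60622310 (No treatment). The 5 loci with reads like ribosomal RNA took 15.4% of the counts in the naive control, 3.13% in MEP1+Rapamycin and 1.00% to 1.28% in the other 4, so the 2 libraries with the highest ribosomal protein share were also the 2 with the highest share of such reads. With these loci left out of the counts, each of the 7 median log2 ratios and counts past the size rule below was the same at the precision printed. Leaving out 5 loci hardly changes TMM scaling, so this could not show whether such reads go with the member levels, which was not tested. Defining genes of CD4 T cells were present in all 6, with none at 0. The 14 CD4 T-cell identity genes summed to 120863 TMM CPM in the naive control and 37371 to 57461 in the transferred libraries. Gene by gene they were mixed. Between No treatment and the naive control their median log2 ratio was 0.06, with 9 above 0 and 5 below. Over all transferred libraries against the naive control the median was -0.13, with 5 above 0 and 9 below. The 12 macrophage, monocyte and dendritic-cell markers summed to 3153 TMM CPM in No treatment, 398 to 682 in the MEP1 libraries and 61.9 in the naive control, where 1 of them, Cd14, was at 0. Their part in differences from No treatment was not tested, and fewer T cells and less RNA per T cell cannot be told apart in bulk samples. The 9 erythroid and platelet markers summed to 1704 TMM CPM in No treatment, 388.6 in the naive control, 362 in MEP1+CMC and 55.9 to 93.7 in the other 3 libraries, with Slc4a1 at 0 counts in MEP1+Metformin. The B-cell and plasma-cell markers summed to 234 to 716 TMM CPM, and the CD8 T-cell markers to 31.4 (naive control) to 477 (MEP1+CMC). The 3 CD8 T-cell markers did not move together. Between No treatment and the naive control 1 was above 0 and 2 were below, with a median log2 ratio of -2.24. Xist stood at 262 TMM CPM in MEP1+CMC and 0.218 to 0.486 in the other 3 MEP1 libraries, and the Y-linked Kdm5d at 0 counts in MEP1+CMC and at 35.4 to 35.7 TMM CPM in those 3. In No treatment they stood at 24.2 and 8.46, and in the naive control at 43.1 and 0.054, TMM CPM. In comparisons of inhibitor libraries with MEP1+CMC, the inhibitor and the sex these transcripts mark cannot be told apart. The transcripts also differed between No treatment and the MEP1 libraries, and between the naive control and the transferred libraries. There too, sex cannot be told apart from the peptide or from transfer and immunisation. Comparisons among the 3 inhibitor libraries do not use MEP1+CMC.

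**Figure D2:**
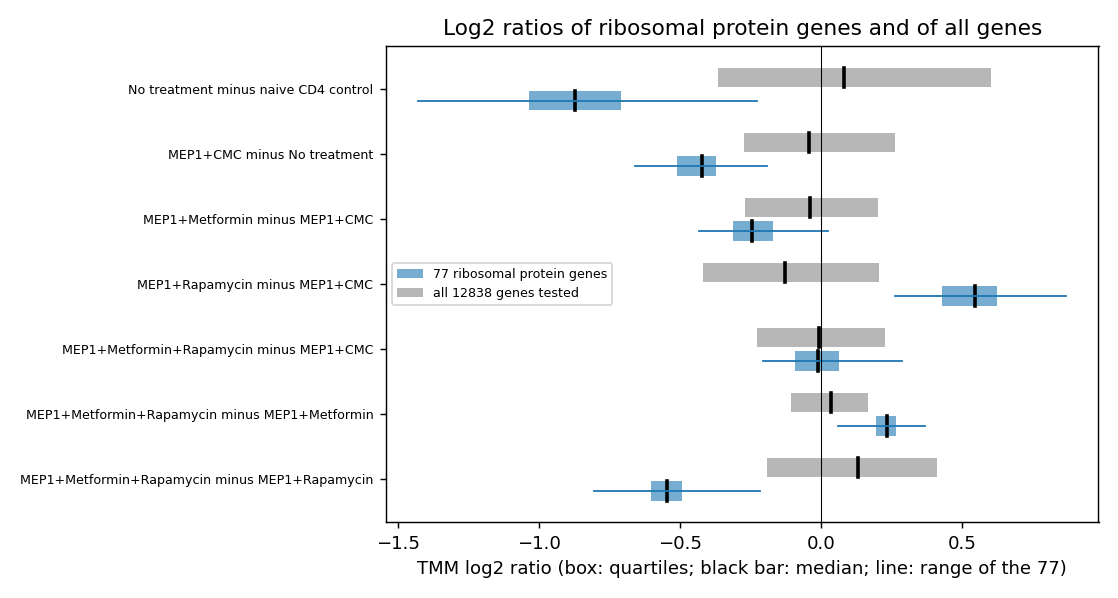
TMM log2 ratio (x axis) in each of the 7 comparisons (y axis) for the 77 ribosomal protein genes (blue) and all 12838 genes tested (grey), with boxes for the quartiles, black bars for medians and thin blue lines for the range of the 77. The blue box lies left of 0 in 4 comparisons, right of it in both rapamycin comparisons and on 0 for the combination minus MEP1+CMC.

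The comparison of the 5 transferred libraries with the naive control asks how antigen-experienced cells differ from cells that had not met antigen. Ribosomal protein mRNAs were lower in the transferred cells, by a median log2 fold change of -1.15 over the 77 genes, and 77 of 77 were below 0. By edgeR's quasi-likelihood test with Benjamini-Hochberg adjustment over the 12838 genes, 48 of the 77 fell (30 of 46 large and 18 of 31 small subunit genes) and none rose, where 5.58% of all genes fell and 4.19% rose. At an unadjusted p below 0.05 the number was 70, all below 0, where 14.9% of all genes were below 0 at that threshold. The test has 4 residual degrees of freedom, its spread also holds treatment differences among the transferred libraries, and the lone naive library is assumed to vary like them. Its count of 48 was 9 without the combination, 15 without MEP1+CMC, 21 without MEP1+Metformin and 3 with library totals as the scaling, where 2.80%, 3.24%, 3.15% and 1.48% of all genes fell, while the median stayed between -1.25 and -1.06 in the fits without 1 library and was -0.56 with library totals.

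The genes with the smallest p were Rps20, Rps7 and Rps26. Rps20, a protein of the small subunit head, had TMM CPM of 989 in the naive control, 367 in No treatment, 246 in MEP1+CMC, 230.3 in MEP1+Metformin, 445 in MEP1+Rapamycin and 276 in the combination. The naive value was more than that of any transferred library, and the fold change was -1.66 (SE 0.32, edgeR adjusted p = 0.0146). Rps26, which sits at the mRNA exit site, had 649.6 in the naive control, 258 in No treatment, 172 in MEP1+CMC, 146 in MEP1+Metformin, 289 in MEP1+Rapamycin and 173 in the combination, with the widest range of the 77 over the 6 libraries (2.15 on the log2 scale). Rps7 fell by 1.52 (SE 0.30, edgeR adjusted p = 0.0159) and Rps26 by 1.65 (SE 0.33, edgeR adjusted p = 0.0161).

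The members did not move by equal amounts. Of the P stalk, which recruits the elongation factors to the ribosome, 4 of 4 genes fell, with edgeR adjusted p from 0.0161 to 0.0382. Its Rplp1 had TMM CPM of 2263 in the naive control, 956 in No treatment, 697 in MEP1+CMC, 528 in MEP1+Metformin, 946 in MEP1+Rapamycin and 646 in the combination, and its base protein Rplp0 had 3691 in the naive control, 1801 in No treatment, 1332 in MEP1+CMC, 1103 in MEP1+Metformin, 1598 in MEP1+Rapamycin and 1266 in the combination. Among the 8 proteins of the exit tunnel and its rim, through which the new chain leaves, 5 fell (Rpl23a, Rpl26, Rpl31, Rpl35 and Rpl39). Rpl35, at the rim, had TMM CPM of 576 in the naive control, 234 in No treatment, 149 in MEP1+CMC, 139 in MEP1+Metformin, 265 in MEP1+Rapamycin and 169.6 in the combination. Rpl4, whose extension lines the tunnel, had 1206 in the naive control, 1028 in No treatment, 811 in MEP1+CMC, 809.7 in MEP1+Metformin, 1046 in MEP1+Rapamycin and 899 in the combination and differed least of the 77, with a fold change of -0.39 (SE 0.26, edgeR adjusted p = 0.34). The intervals of Rpl35 and Rpl4 between No treatment and the naive control do not overlap, at -1.30 (-1.34 to -1.26) and -0.23 (-0.25 to -0.21).

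The 5S RNP proteins Rpl5 and Rpl11, which also bind Mdm2 when ribosome assembly is disturbed, did not pass the test, with fold changes of -0.71 and -0.78 and edgeR adjusted p of 0.195 and 0.115. Of the pair that completes the 60S subunit or joins it late, Rpl10 fell by 1.25 (edgeR adjusted p = 0.0234) and Rpl24 was at -0.98 (adjusted p = 0.0552). On the mRNA channel and decoding side, Rps2 and Rps3 fell, at -1.21 and -1.07, while Rps15 (-1.21, edgeR adjusted p = 0.0507) and Rps23 (-0.74, 0.15) missed the threshold. Rps6, the protein phosphorylated by the S6 kinases downstream of mTORC1, had TMM CPM of 761 in the naive control, 589.8 in No treatment, 439.6 in MEP1+CMC, 408 in MEP1+Metformin, 590.2 in MEP1+Rapamycin and 466 in the combination. Its fold change was -0.61 (edgeR adjusted p = 0.177), and it had 1 of the narrower ranges among the transferred libraries (0.53). Rps27a, made as a fusion with ubiquitin, fell by 1.26 (edgeR adjusted p = 0.0283). Of the 9 genes named here for Diamond-Blackfan anaemia, an inherited failure of red cell production, 4 fell (Rps7, Rps10, Rps26 and Rpl35a).

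Some members are near copies of each other, and their levels were set side by side. Rps27l, the p53-responsive copy of Rps27, had TMM CPM of 78.3 in the naive control, 66.2 in No treatment, 46.4 in MEP1+CMC, 34.4 in MEP1+Metformin, 56.5 in MEP1+Rapamycin and 41.3 in the combination, and Rps27 had 3424 in the naive control, 2004 in No treatment, 1403 in MEP1+CMC, 1120.1 in MEP1+Metformin, 2048 in MEP1+Rapamycin and 1396 in the combination. Between No treatment and the naive control Rps27l differed by -0.24 (-0.33 to -0.15) and Rps27 by -0.77 (-0.79 to -0.76), and neither passed the model test (edgeR adjusted p 0.189 and 0.0687). Rpl3l, a muscle form of Rpl3, had 3 counts in MEP1+Rapamycin and 1 in the combination, and Rpl10l, a testis form of Rpl10, had 1 count in MEP1+Metformin. Both were otherwise at 0 counts, which allows up to 3 counts per library. Rpl39l, a copy of Rpl39 best known from testis, had 10 counts in No treatment, 30 in MEP1+CMC, 3 in MEP1+Metformin, 33 in MEP1+Rapamycin, 11 in the combination and 0 in the naive control, against 117 to 407 TMM CPM for Rpl39 and at most 0.89 for Rpl39l. Rpl22 and Rpl7, which have paralogs outside the rule, fell by 1.02 and 1.05 (edgeR adjusted p 0.0426 and 0.0449). Their paralogs Rpl22l1 and Rpl7l1 had 147 and 89.3 TMM CPM in the naive control and 103 and 89.5 in No treatment. Rps4x, the X-linked gene for S4, was at -0.95 (adjusted p = 0.0984).

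**Figure D3:**
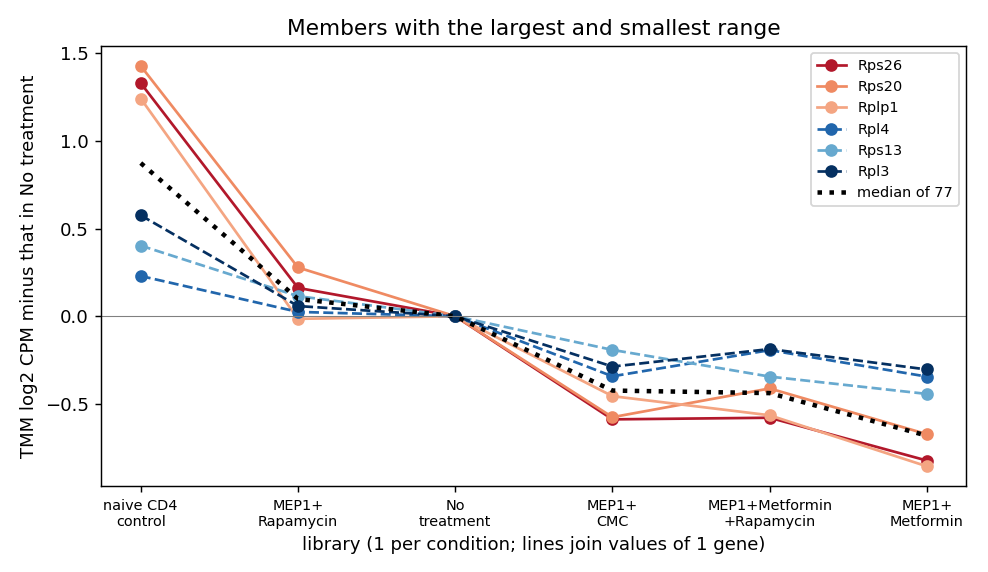
TMM log2 CPM minus that in No treatment (y axis) in the 6 libraries (x axis) for the 3 members with the largest range (Rps26, Rps20, Rplp1, solid) and the 3 with the smallest (Rpl4, Rps13, Rpl3, dashed), with the median of the 77 dotted. The naive value of Rps20 is 1.43 above No treatment and that of Rpl4 only 0.23 above it.

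Between the single libraries, No treatment minus naive, the median log2 ratio was -0.87 over the 77 genes and 0.08 over all genes. A size rule, at least 1.5-fold with an exact 95% counting interval that excludes 0, was met by 61 of the 77, all lower, where 16.1% of all genes were called lower and 24.4% higher. At 2-fold, 25 of the 77 were lower, where 7.54% of all genes were. Scaling by library totals shifted the median of all genes by 0.42 and gave -0.46 for the members with 24 past the rule, where 7.35% of all genes were lower. The member median relative to that of all genes, -0.96, does not depend on the scaling. The highest of the 77 were Rpl4 (-0.23), Rps27l (-0.24) and Rpl9 (-0.33). The macrophage, monocyte and dendritic-cell markers were at 5.05 (12 of 12 above 0), and their part in the result was not tested.

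Other genes of the translation apparatus were set beside the members, from lists written by name. Pseudogenes of ribosomal proteins, which share reads with their parents, had a median of -0.93 (110 of 280 passed the filter), and carried 1.98 to 2.15 counts per 100 counts of the members in every library. Reads of a member and of its processed copies can be split in the counting, so values of single members are uncertain to that extent. The 78 mitochondrial ribosomal proteins, which build a separate ribosome, had a median of -0.13, with 5 lower and 2 higher by the size rule. The 20 other translation genes of the TOP class had -0.40, with 6 lower, led by Eef2, the translocation factor (-1.37). The 28 genes of ribosome assembly and RNA polymerase I had -0.30, with 6 lower. The 11 snoRNA host genes had -0.27, with 3 lower and 1 higher, and among them Rack1, itself a small subunit protein, was at -1.09. The 18 genes of mTORC1 signalling had 0.12, with 2 higher and 4 lower, led by the mTORC1 inhibitor Ddit4 (-3.26) and with Myc, which drives ribosome production, at -1.57. In the model of transferred against naive cells, edgeR called lower 6 of the 20 TOP-class genes, 4 of the 28 assembly genes, 3 of the 18 mTORC1 genes (1 rose) and 1 of the 11 snoRNA host genes (1 rose).

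MEP1+CMC was set against No treatment to ask what the earlier peptide and vehicle had left in the cells. The members were lower in MEP1+CMC, with a median of -0.42 against -0.04 over all genes, and 77 of 77 were below 0. By the size rule 7 were lower (Rpl24, Rpl35, Rps7, Rps19, Rps21, Rps26 and Rps28), where 7.74% of all genes were, so their share was near that of genes in general. The count was 3 with DESeq2's size factors, with TMM over the filtered genes and with the trend of all genes on exon length removed, and 0 with library totals, where 6.91%, 6.95%, 7.19% and 5.99% of all genes were lower. At 2-fold it was 0, where 3.72% of all genes were lower. Rps7, a small subunit protein needed for 18S rRNA processing, differed most at -0.66 (-0.69 to -0.63), then Rpl35 (-0.65) and Rps19 (-0.64). Rps13, a small subunit protein at the interface, differed least at -0.19 (-0.22 to -0.17), followed by Rpl10 (-0.27) and Rpl28 (-0.28). The macrophage and the erythroid markers were all lower in MEP1+CMC, with medians of -2.19 (12 of 12) and -2.05 (8 of the 8 that passed the filter), and their part in the result was not tested. Mitochondrial ribosomal proteins had a median of -0.27, pseudogenes -0.42, TOP-class genes -0.31, assembly genes -0.15, snoRNA hosts 0.06 and mTORC1 genes -0.05.

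Over the 4 MEP1 libraries against No treatment, none of the 77 passed edgeR's quasi-likelihood test, where 1.30% of all genes fell and 0.600% rose. With every transferred library in the fit, none had an unadjusted p below 0.05 either, by edgeR, by its legacy form or by DESeq2. At that p edgeR gave 8.51% of all genes below 0 and 8.92% above 0. The median fold change was -0.34 with 77 of 77 below 0, and -0.12 with library totals. The smallest p belonged to Rps27l (-0.57, SE 0.25, edgeR adjusted p = 0.29), then Rpl29 (-0.48) and Rpl15 (-0.43). With 1 library left out, the median was -0.30 without MEP1+CMC, -0.23 without MEP1+Metformin, -0.30 without the combination and -0.52 without MEP1+Rapamycin. MEP1+Rapamycin is the MEP1 library in which the members were high, so the lower median without it follows from that. The absence of members with an unadjusted p below 0.05 did not hold without MEP1+Rapamycin.

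Metformin given with MEP1 went with slightly lower members. MEP1+Metformin minus MEP1+CMC had a median of -0.25 against -0.04 over all genes, with 75 of 77 below 0. None of the 77 met the size rule, where 7.76% of all genes were called lower and 7.25% higher. Rps27l (-0.43), Rpsa, the laminin receptor precursor (-0.41), and Rpl41, the shortest ribosomal protein (-0.41), were the lowest. Rps7 (0.02, -0.01 to 0.05), Rps19 (0.0039) and Rpl4 (-0.002) had intervals that include 0. The median was -0.10 with library totals, whose shift of all genes was 0.15, and -0.12 after a length trend was removed. Mitochondrial ribosomal proteins had a median of -0.27, and pseudogenes stood at -0.37, TOP-class genes at -0.17, snoRNA hosts at -0.22, assembly genes at 0.05 and mTORC1 genes at 0.16. The CD4 identity genes were at -0.31 (13 of 14 below 0), the B-cell and plasma-cell markers at -0.82 (9 of the 9 that passed the filter below 0) and the erythroid and platelet markers at -2.76 (6 of 8 below 0). Their part in the result was not tested.

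Rapamycin given with MEP1 went with higher members. MEP1+Rapamycin minus MEP1+CMC had a median of 0.54 against -0.13 over all genes, and 77 of 77 were above 0. By the size rule 26 were higher, 15 of the large and 11 of the small subunit, where 11.1% of all genes were called higher. The count was 61 with library totals, 58 with TMM over the filtered genes and 53 with DESeq2's size factors, which moved the median of all genes by 0.16, 0.16 and 0.13 and gave 15.7%, 15.5% and 14.5% of all genes as higher. It was 13 after the length trend was removed, where 8.81% of all genes were higher, and 0 at 2-fold, where 5.15% of all genes were higher.

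Rps24, Rps19 and Rps20 were the highest. Rps24, a small subunit protein required for early 18S rRNA processing, had TMM CPM of 669.5 in the naive control, 363 in No treatment, 255 in MEP1+CMC, 247 in MEP1+Metformin, 466 in MEP1+Rapamycin and 282 in the combination. MEP1+Rapamycin lay above every other transferred library, and the ratio to MEP1+CMC was 0.87 (0.84 to 0.90). Rps19, the gene most often affected in Diamond-Blackfan anaemia, had 2356 in the naive control, 1441 in No treatment, 924 in MEP1+CMC, 927 in MEP1+Metformin, 1679.7 in MEP1+Rapamycin and 1126 in the combination. Its ratio was 0.86 (0.85 to 0.88), with the MEP1+CMC value the lowest of the 6. Rpl5 of the 5S RNP had 569.7 in the naive control, 382 in No treatment, 298 in MEP1+CMC, 261 in MEP1+Metformin, 507 in MEP1+Rapamycin and 290.4 in the combination, and its ratio of 0.77 (0.74 to 0.80) was well above that of its partner Rpl11 (0.42, 0.39 to 0.45). Rpl27 (0.26), Rps3, a protein of the mRNA entry site (0.26), and Rplp0 (0.26) had the lowest ratios, all with intervals above 0. Rps6 was at 0.43. The 4 X-linked members (Rpl10, Rpl36a, Rpl39 and Rps4x) had a median of 0.67 against 0.54 for the other 73.

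The other lists were as follows. Mitochondrial ribosomal proteins had a median of 0.10 with 0 of 78 called, TOP-class genes 0.14 with 0 of 20 higher and Eif2s3x, an X-linked initiation factor subunit, lower at -1.10. Assembly genes had 0.07 and snoRNA hosts 0.15, with none called, and mTORC1 genes -0.13, with 2 higher (Ddit4 at 1.55 and Myc at 0.76) and 1 lower. Pseudogenes had 0.57. The 5 loci with reads like ribosomal RNA were also higher, at a median of 1.32. Leaving them out of the counts, which hardly changes TMM scaling, gave a member median of 0.54 and a count of 26. The part of such reads in the result was not tested. The CD4 identity genes were at -0.50 (14 of 14 below 0) and the erythroid and platelet markers at -1.93 (7 of 8 below 0), and their part in the result was not tested. No difference between these lists and the members was tested.

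**Figure D4:**
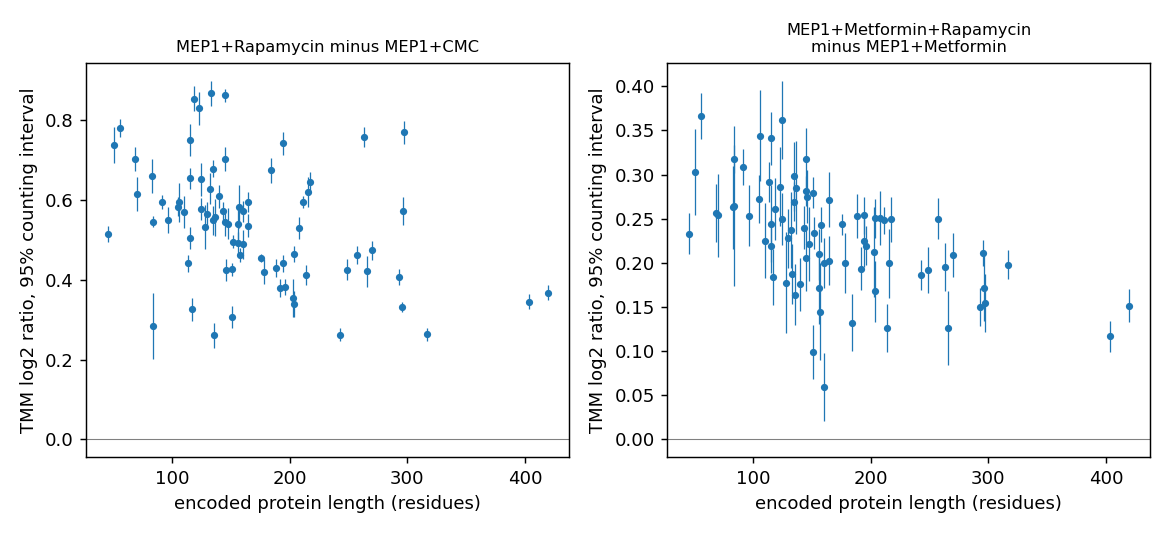
TMM log2 ratio with its 95% counting interval (y axis) against encoded protein length in residues (x axis) for the 77 genes. The left panel is MEP1+Rapamycin minus MEP1+CMC and the right panel the combination minus MEP1+Metformin. Length is that of the protein annotated as principal, or of the longest where none is so marked. The shorter genes lie higher, with a median of 0.59 for the 20 shortest and 0.44 for the 20 longest on the left, and 0.26 and 0.19 on the right.

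Within the family the size of the difference went with length. Between MEP1+Rapamycin and MEP1+CMC the 20 members of up to 123 residues had a median of 0.59 and the 20 of at least 204 residues 0.44, and Spearman's rho with protein length was -0.40 over the 77 genes. The other comparisons gave rho of 0.28 (No treatment minus naive), 0.55 (MEP1+CMC minus No treatment), 0.24 (MEP1+Metformin minus MEP1+CMC), -0.07 (combination minus MEP1+CMC), -0.59 (combination minus MEP1+Metformin) and 0.48 (combination minus MEP1+Rapamycin). In the 6 with an absolute rho over 0.2, the 20 shortest had a median farther from 0 than the 20 longest. These are descriptions over genes of the same libraries, which share depth and fragment length, and genes are not independent replicates. Removing the loess trend of all genes on exon length left member medians of -0.74, -0.32, -0.12, 0.39, 0.071, 0.18 and -0.31 in the order No treatment minus naive, MEP1+CMC minus No treatment, MEP1+Metformin minus MEP1+CMC, MEP1+Rapamycin minus MEP1+CMC, and the combination minus MEP1+CMC, MEP1+Metformin and MEP1+Rapamycin. The sources used here give no fragment lengths, and the part of library preparation in these trends was not tested.

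With both inhibitors the members had nearly the median level they had with vehicle, 8.50 and 8.53 TMM log2 CPM. The combination minus MEP1+CMC had a median of -0.01, with 35 of 77 above 0 and 42 below, and -0.01 over all genes. None met the size rule, where 8.12% of all genes were called higher and 7.86% lower. The sign of the median flips, to 0.11 with library totals and 0.071 with the length trend removed. Rps19 (0.29, 0.27 to 0.30), Rps7 (0.25) and Rpl14 (0.20) were the highest and Rpl27 (-0.21), Rpl34 (-0.20) and Rpsa (-0.20) the lowest. The CD4 identity genes were at -0.34 (14 of 14 below 0), the B-cell and plasma-cell markers at 0.76 (7 of 9 above 0) and the erythroid and platelet markers at -2.45 (5 of 8 below 0), and their part in the result was not tested. Mitochondrial ribosomal proteins had a median of -0.14, TOP-class genes -0.08, assembly genes 0.10, mTORC1 genes 0.13, pseudogenes -0.04 and snoRNA hosts -0.34.

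The 2 comparisons among inhibitor libraries leave out MEP1+CMC. The combination minus MEP1+Metformin, rapamycin added to metformin, had a median of 0.23 against 0.03 over all genes, and 77 of 77 were above 0. None met the size rule, where 3.93% of all genes were called higher and 4.41% lower. Rps29, a zinc-binding small subunit protein, was the highest at 0.37 (0.34 to 0.39), then Rpl31 (0.36) and Rpl36a (0.34), and Rpl29 was the lowest at 0.06 (0.02 to 0.10), below Rps13 (0.10) and Rpl3 (0.12). The combination minus MEP1+Rapamycin, metformin added to rapamycin, had a median of -0.55 against 0.13, with 77 of 77 below 0. By the size rule 26 were lower, where 8.95% of all genes were. The count was 67 with DESeq2's size factors, 69 with TMM over the filtered genes, 41 with library totals, 17 with TMM without ribosomal protein genes and 4 with the length trend removed, where 13.1%, 13.7%, 10.3%, 8.13% and 5.43% of all genes were lower. At 2-fold it was 0, where 3.01% of all genes were lower. Rpl5 (-0.80, -0.84 to -0.77), Rps4x (-0.77) and Rps15 (-0.76) were the lowest, and Rpl4 (-0.22, -0.24 to -0.20), Rpl3 (-0.25) and Rps3 (-0.32) the highest.

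The other lists in these 2 comparisons were as follows. Against MEP1+Metformin, medians were 0.11 for mitochondrial ribosomal proteins, 0.28 for pseudogenes, 0.11 for TOP-class genes, 0.09 for assembly genes, 0.05 for mTORC1 genes and -0.20 for snoRNA hosts. Against MEP1+Rapamycin they were -0.22 for mitochondrial ribosomal proteins, -0.61 for pseudogenes, -0.23 for TOP-class genes, 0.0048 for assembly genes, 0.18 for mTORC1 genes and -0.53 for snoRNA hosts, where 4 of 11 were lower. The B-cell and plasma-cell markers were at 2.08 against MEP1+Metformin (8 of the 9 that passed the filter above 0) and at 1.09 against MEP1+Rapamycin (9 of 9 above 0), and their part in the result was not tested. The 5 loci with reads like ribosomal RNA were at -1.18 against MEP1+Rapamycin (5 of 5 lower by the size rule). Leaving them out of the counts, which hardly changes TMM scaling, gave a member median of -0.55 and a count of 26. The part of such reads in the result was not tested.

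**Figure D5:**
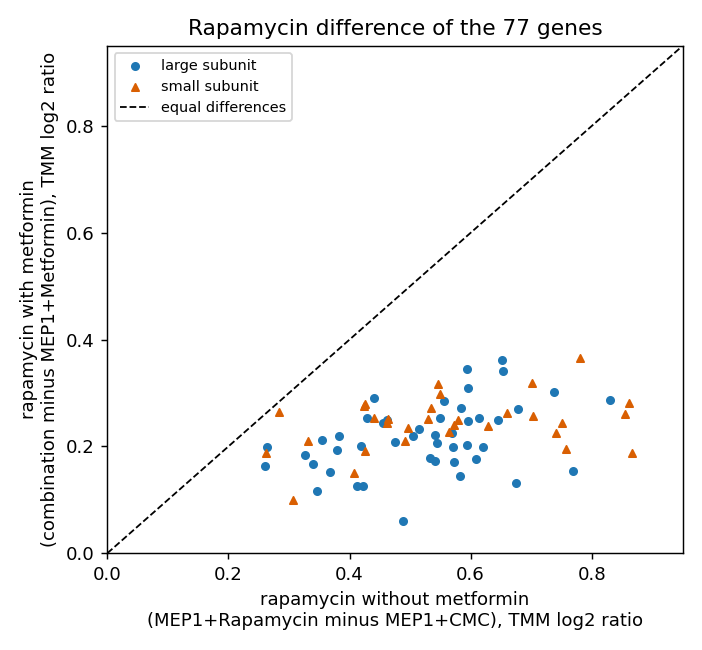
Log2 ratio of each of the 77 genes for rapamycin without metformin (x axis, MEP1+Rapamycin minus MEP1+CMC) and with it (y axis, combination minus MEP1+Metformin), 4 different libraries, with the line of equal differences dashed. All 77 points lie above 0 on both axes and below the line.

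The rapamycin difference was smaller beside metformin for each gene. The difference of the 2 differences, the departure from additivity, had a median of -0.29 over the 77 genes and ran from -0.68 (Rps24) to -0.02 (Rps27l), with 77 of 77 below 0, while 36.0% of all genes were below 0 and their median was 0.17. Rpl5 (-0.61) and Rps20 (-0.59) followed Rps24, and Rplp0 (-0.07) and Rps3 (-0.08) were next to Rps27l. The scaling sets the zero of this value. It was -0.44 with DESeq2's size factors, -0.49 with library totals and -0.47 with TMM over the filtered genes. With TMM without ribosomal protein genes it was -0.26, where 76 were below 0. Relative to all genes it was -0.46 in each, and 19.6% of all genes lay below the member median. The share of all genes below 0 was 52.7% with library totals. The departure rests on 4 libraries with no replicate, so no test of it was possible. MEP1+CMC is among them, so the departure cannot be told apart from the sex that Xist and Kdm5d mark. Across the 77 genes the 2 rapamycin differences, which share no library, had a Pearson r of 0.39 and a Spearman rho of 0.40, and the 2 metformin differences 0.23 and 0.17. These points share the 4 libraries and the length trend.

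The additive model of the 4 MEP1 libraries treats that departure as its error, with 1 residual degree of freedom. The sex that Xist and Kdm5d mark, which sets MEP1+CMC apart, enters this error and both terms. None of the 77 passed edgeR's test for the metformin term, where 0.101% of all genes fell and 0.0623% rose, and 13 had an unadjusted p below 0.05, all below 0, where 2.84% of all genes did in that direction. The median was -0.41, with 77 of 77 below 0. Rps15, which helps form the decoding side of the head, had the smallest p (-0.57, SE 0.22, edgeR adjusted p = 0.676), then Rpl41 (-0.55) and Rpl28 (-0.49). For the rapamycin term none passed, where 0.0545% of all genes rose and 0.148% fell, and 14 had an unadjusted p below 0.05, all above 0, where 2.34% of all genes did in that direction. The median was 0.38, with 77 of 77 above 0. Rpl35 had the smallest p (0.56, SE 0.22, edgeR adjusted p = 0.673), then Rps29 (0.57) and Rps20 (0.56). DESeq2's Wald test called none for either term, with 66 below 0 for metformin and 64 above 0 for rapamycin at an unadjusted p below 0.05, where 4.44% and 2.74% of all genes were (1 adjusted p of the metformin term was not given). The legacy form of edgeR's test called none, with 9 and 14 in the same directions, where 2.73% and 2.24% of all genes were.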

How the data were processed

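RNA of 6 libraries was sequenced after an ultra-low-input preparation, per the labels' protocols. The deposited files hold raw counts of reads per gene, made by the authors with STAR 2.5.2b after Trimmomatic 0.36, and with featureCounts (Subread 1.5.2) on build GRCm38, per the submitters' processing notes. The sources used here give no strand setting, annotation release or rule for multiply aligned reads. Symbols came from GENCODE M21 (49056 of 49315 identifiers matched).

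Counts were scaled with TMM in edgeR 4.0.16 (R 4.3.3). Pairs of libraries were compared by TMM log2 ratio, with 95% intervals from the exact Clopper-Pearson method on both counts, and a count of 0 was set to a floor of 3 per library. Floors and intervals cover counting error only. The 4 models used edgeR's quasi-likelihood test (glmQLFit, glmQLFTest, robust) on 12838 genes, with the threshold at an adjusted p of 0.05. These p-values reflect only the spread among the libraries, which the edgeR fit partly borrows for each gene from all genes tested. That spread holds treatment differences or, in the additive model, the departure from additivity, and it may also be technical. The alternative test was DESeq2 1.42.0. Scripts were tested on simulated data. Figures and descriptions used Python 3.11.15.

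Members named are those with set roles in the ribosome, the 3 highest and 3 lowest of each comparison, the 3 smallest p of each model in each direction, those that failed the filter and the 3 largest and smallest ranges. The members, roles and gene lists were chosen with earlier results of these data known. Values of some genes are not reported here.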

Additional observations from a re-analysis of the deposited data

How the results depend on the processing

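Of 163 values recomputed under the alternatives, 115 stayed within their spread or within 1.5 times the count, 46 moved and 2 reversed. DESeq2's size factors gave medians of -0.97 (No treatment minus naive), -0.37 (MEP1+CMC minus No treatment), 0.67 (MEP1+Rapamycin minus MEP1+CMC) and -0.68 (combination minus MEP1+Rapamycin), with counts past the size rule of 3, 53 and 67 in the last 3. Library totals gave -0.46, -0.32, -0.10 (MEP1+Metformin minus MEP1+CMC), 0.71, 0.11 (combination minus MEP1+CMC, reversed) and -0.59, with counts of 24, 0, 61 and 41 and, in the test of transferred against naive cells, 3. TMM over the filtered genes, chosen after seeing the data, gave -0.93, -0.38, -0.22, 0.70 and -0.70, with counts of 3, 58 and 69. TMM without ribosomal protein genes moved the combination minus MEP1+Rapamycin to -0.52 and 17. Removing the loess trend on exon length gave -0.74, -0.32, -0.12, 0.39, 0.071 (reversed), 0.18 and -0.31 over the 7 comparisons in the report's order, with counts of 3, 13 and 4. At 2-fold the counts were 25, 0, 0 and 0. The share of all genes called under the same setting is given beside each of these counts in the comparisons above. With the 6 proteins outside the name rule, No treatment minus naive had -0.85. Without the filter, MEP1+Metformin minus MEP1+CMC and the combination minus MEP1+CMC had 1 gene past the rule, Rpl39l, which the filter leaves out. The cause of the other movements was not tested.

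Leaving out 1 library gave 9 to 60 genes called between transferred and naive cells, and 0 in the MEP1 test. The 9 came without the combination and the 60 without No treatment, where 2.80% and 11.8% of all genes fell. In the MEP1 fits, 0.787% to 1.39% of all genes fell and 0.234% to 1.12% rose. Leaving out 1 library could not be run for the metformin and rapamycin terms, which would have no residual degrees of freedom. No paired analysis was possible because the labels carry no replicate numbers and each group is 1 library. Depth is not the limit for the 77 genes, of which each had at least 100 counts in every library.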
